A study of Homo sapiens with 12 samples.

Results

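Poly-A RNA of HEK293T cells that had received a plasmid with a BCL2L11 trigger was compared, gene by gene, with that of cells that had received the same kind of plasmid without a trigger. The genes compared were those with at least 1 FPKM in at least 2 libraries, 15183 of the 67053 genes listed. FPKM, fragments per kilobase of transcript and per unit of library size, is a level scaled for both, and a gene's level was the sum over its transcript models. HEK293T is a human embryonic kidney cell line that carries the large T antigen. The BCL2L11 cells had a GFP reporter whose 3′ untranslated region held a piece of BCL2L11, the TRIM9 cells the same reporter with a piece of TRIM9, and the GFP cells the reporter alone. All cells were given 2 µg of plasmid by transient transfection, with PEI or lipofectamine (the labels do not say which of them each sample received), and RNA was taken 48 h later, so every group carried a GFP plasmid and there were no untransfected cells among the groups compared. Each group had 2 poly-A libraries, given as biological replicates, and 2 small RNA libraries.

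A trigger is an RNA that pairs with a microRNA (miRNA) not only through the seed but also through its 3′ end, and such pairing leads to loss of the miRNA in place of repression of the RNA. The process, target-directed miRNA degradation, uses the ubiquitin ligase adaptor ZSWIM8 with a Cullin-3 complex, which removes the Argonaute protein and exposes the miRNA. The BCL2L11 transcript, which encodes the pro-apoptotic protein BIM, carries in its 3′ untranslated region a site of this kind for miR-221 and miR-222. These miRNAs repress among others the cell cycle inhibitor gene CDKN1B and pro-apoptotic genes, so the poly-A libraries ask whether mRNA levels differ in cells where the trigger is present.

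The miRNAs that the trigger pairs with are shown because they share the seed, bases 2 to 8 in capitals, and so also share seed-matched targets. The sequences are from RefSeq (GRCh38.p14), 5′ to 3′, and both lie on the minus strand of the X chromosome, at chrX:45746180-45746202 and chrX:45747036-45747056.
hsa-miR-221-3p: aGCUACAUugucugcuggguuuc
hsa-miR-222-3p: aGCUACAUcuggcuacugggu
The letters after the seed, the part that the extended pairing of a trigger reads, differ between them in part. Both hold the stretch cugggu near the 3′ end. In the matched small RNA libraries miR-221-3p had 1959 and 1803 RPM (reads scaled to the total of miRNA reads) in BCL2L11 cells, 5733 and 3831 in TRIM9 cells, and 4198 and 4745 in GFP cells. For miR-222-3p the values were 2701 and 2832 in BCL2L11 cells, 5603 and 4545 in TRIM9 cells, and 4151 and 4789 in GFP cells. Both BCL2L11 libraries lay below the other 4 for each miRNA. The noncoding host gene of both, MIR222HG (chromosome X, 45745211 to 45770274, minus strand), had 15.37 and 16.98 FPKM in BCL2L11 cells, 20.72 and 28.48 in TRIM9 cells, and 17.01 and 15.67 in GFP cells. The BCL2L11 and GFP libraries overlapped for the host transcript (log2 fold change -0.01, SE 0.30, 0.08 after TMM rescaling).

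Each poly-A library listed 250719 transcript models. The number above 0 was 100723 and 109805 in BCL2L11 cells, 99690 and 109975 in TRIM9 cells, and 83584 and 110534 in GFP cells, so that GFP replicate 1 stood apart on the low side. Coverage summed to 4.287 and 4.089 gigabases in BCL2L11 cells, 4.523 and 3.999 in TRIM9 cells, and 3.534 and 3.397 in GFP cells; read counts per gene were not analysed here. Replicates 1, whose titles carry the numbers 1 to 3, are called library set 1, and replicates 2, with the numbers 4 to 6, library set 2. The sets differed from each other in each group, and differences within each set are therefore given beside the results. Of 10 HEK293 markers 8 passed the filter, with summed levels of 497 and 549 FPKM in BCL2L11 cells, 633 and 607 in TRIM9 cells, and 522 and 547 in GFP cells. The adaptor gene IRS4, high in this line, also separated the sets, with 9.46 and 65.35 FPKM in BCL2L11 cells, 15.97 and 80.27 in TRIM9 cells, and 8.61 and 65.92 in GFP cells. Of fibroblast, blood and epithelial markers 1 of 9, 4 of 11 and 1 of 9 passed the filter, and the leukocyte markers PTPRC and CD3E were listed at 0 in all 6 libraries.

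BCL2L11 itself (chromosome 2, 111119378 to 111168445, plus strand, hg38) was the most abundant gene of both BCL2L11 libraries. Its level was 11484 and 11275 FPKM in BCL2L11 cells, 3.95 and 6.32 in TRIM9 cells, and 5.40 and 6.15 in GFP cells. The gene ranked 1 in both BCL2L11 libraries, 9018 and 7687 in the TRIM9 libraries, and 7741 and 8086 in the GFP libraries. It took 2.25% and 2.99% of all FPKM in BCL2L11 cells, 0.000795% and 0.00162% in TRIM9 cells, and 0.00122% and 0.00159% in GFP cells. The log2 fold change against GFP, on the scale of log2 of FPKM plus 1, was 10.72 (SE 0.32, 95% interval 9.96 to 11.47, n = 2 per group, adjusted p = 6.92e-05 in limma). Within library sets 1 and 2 the log2 difference was 10.81 and 10.62.

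The files resolve where in the gene this signal was placed. Of 23 transcript models of BCL2L11, 8 run to the distal end of the gene, 111168444 or 111168445, and thus hold the long 3′ untranslated region. Those 8 models held 11484.1 and 11274.0 FPKM in BCL2L11 cells, 3.3 and 5.6 in TRIM9 cells, and 3.2 and 6.0 in GFP cells. The other 15 models, which end upstream, held 0.37 and 0.70 FPKM in BCL2L11 cells, 0.64 and 0.75 in TRIM9 cells, and 2.22 and 0.20 in GFP cells. The whole difference therefore lay in models with the distal end, and for the models without it the BCL2L11 and GFP libraries overlapped. Reads of the plasmid's trigger and of the cells' own distal BCL2L11 transcripts cannot be told apart in these values.

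The split among the distal models differed between the replicates. ENST00000621302.4 held 90.3% and 17.7% of the BCL2L11 FPKM in BCL2L11 cells, 21.8% and 5.66% in TRIM9 cells, and 6.03% and 22.5% in GFP cells. ENST00000393256.8 held 4.56% and 75.1% in BCL2L11 cells, 19.6% and 53.7% in TRIM9 cells, and 0.0% and 42.9% in GFP cells. BCL2L11 replicate 1 was assigned mostly to the first of these models and replicate 2 mostly to the second, although the gene totals were close. Among transcripts fitted singly, limma called 0 of 33099 (0%), with 900 at an unadjusted p under 0.05, and the lowest adjusted p was 0.155. Only 4 models of BCL2L11 passed the filter in that fit.

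**Figure D1:**
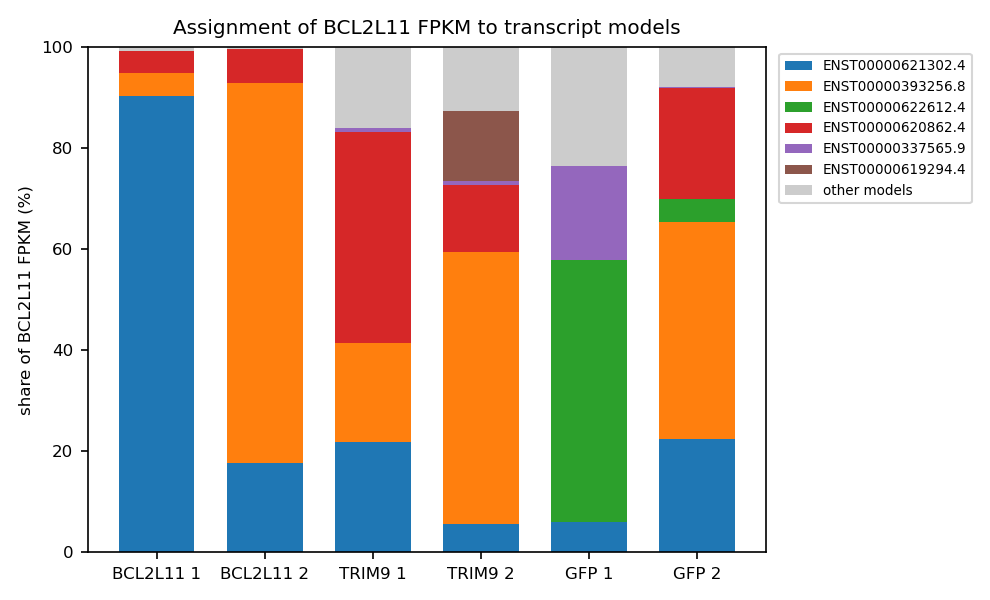
Share of the gene's FPKM assigned to each BCL2L11 transcript model (vertical axis, percent) in each of the 6 poly-A libraries (horizontal axis), stacked, with the 6 models of largest share in colour and the rest in grey. BCL2L11 replicate 1 is mostly ENST00000621302.4 (90.3%) and BCL2L11 replicate 2 mostly ENST00000393256.8 (75.1%).

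Across all genes, BCL2L11 was the 1 gene that passed: limma called 1 of 15183 genes against GFP at an adjusted p under 0.05 (0.00659%), with 83 at an unadjusted p under 0.05, and the second lowest adjusted p was 1.0. The median log2 fold change was -0.08, and 90% of genes, those between the 5th and 95th percentiles, lay between -0.44 and 0.41. A change of more than 1 on the log2 scale, which is 2-fold, was estimated for 107 genes, 75 higher and 32 lower, BCL2L11 among them. With 2 libraries per group, in the fit by group alone, the median SE was 0.36. The 95% interval lay within a 2-fold change in either direction for 6292 genes (41.4%) and within a 4-fold change for 14758 (97.2%). The spread in this fit also holds the difference between the library sets, for which 4991 genes passed. With the sets as a term 543 genes had an unadjusted p under 0.05 in limma, and 1 passed, BCL2L11. In the fit by group alone the share with an interval inside 2-fold was 52.7% of 1010 genes with a mean under 1 FPKM. There the added 1 compresses changes. The share was 43.0% of 5709 genes from 1 to 5 FPKM, 37.8% of 5186 from 5 to 20, 45.1% of 2660 from 20 to 100, and 23.1% of 618 genes above 100 FPKM. The same sign in both library sets was seen for 7739 of 15183 genes, and the median within sets 1 and 2 was -0.05 and -0.12. The authors' deposited table for this comparison held 5930 genes, 0 of them with a q-value under 0.05 and 209 with a p-value under 0.05. In the authors' deposited table BCL2L11 had a log2 fold change of 12.88, whose direction the table does not state, and a p-value of 0.024.

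**Figure D2:**
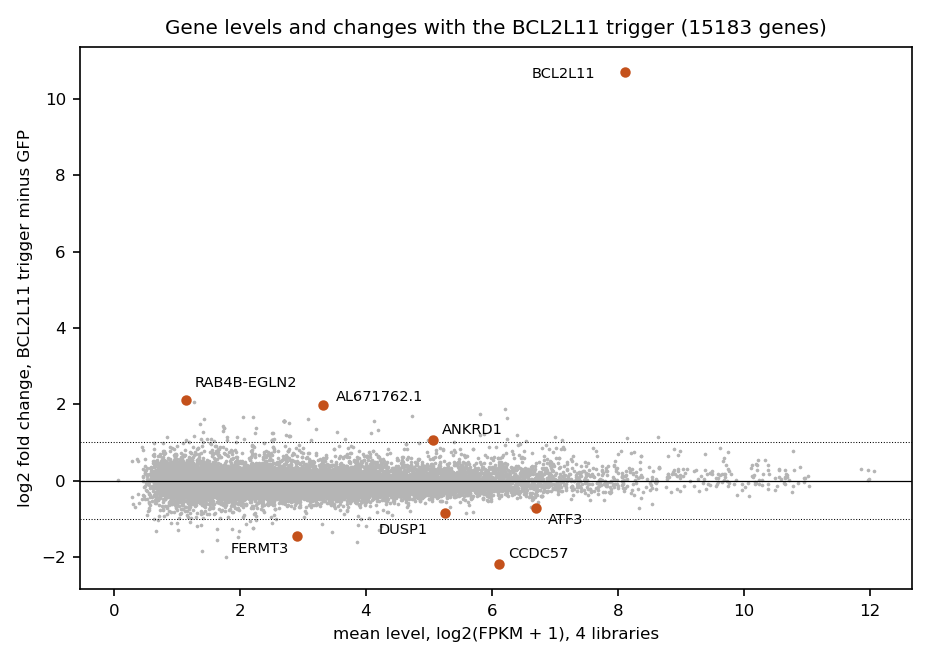
Log2 fold change of BCL2L11 minus GFP cells (vertical axis) against mean log2 of FPKM plus 1 over the 4 libraries (horizontal axis), 1 point for each of 15183 genes, with dotted lines at a 2-fold change. BCL2L11 stands at 10.72, far above the other genes, and the named genes nearest to it in p, such as RAB4B-EGLN2 at 2.12 and FERMT3 at -1.46, lie at the edge of the cloud.

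As a description without a test, both BCL2L11 libraries lay above both GFP libraries for 674 genes (4.44%) and below both for 1863 (12.3%). The balance turned with the scaling: after rescaling by TMM, which sets the libraries' typical genes equal, 1273 genes (8.38%) lay above both and 1079 (7.11%) below both. TMM moved the median log2 fold change to 0.00. In bulk RNA a lower level can be fewer cells with the transcript or less of it per cell, which cannot be told apart.

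The genes of lowest p on the higher side, none of which passed over all genes, included readthrough genes, small RNA copies and genes that overlap others on the same strand, whose reads the quantification divides between models. RAB4B-EGLN2, a readthrough of 2 neighbouring genes (chromosome 19, plus strand), had 4.31 and 3.01 FPKM in BCL2L11 cells, 16.89 and 9.38 in TRIM9 cells, and 0.00 and 0.13 in GFP cells (log2 fold change 2.12, SE 0.37). Both triggers' libraries lay above the GFP libraries, and the TRIM9 libraries were the highest. Its partner EGLN2, named after its values were seen, a prolyl hydroxylase gene, had 30.12 and 12.04 FPKM in BCL2L11 cells, 10.01 and 4.55 in TRIM9 cells, and 17.90 and 16.12 in GFP cells. AC025165.3, which overlaps TSFM on the same strand, had 2.79 and 5.42 FPKM in BCL2L11 cells, 11.95 and 10.42 in TRIM9 cells, and 0.00 and 0.41 in GFP cells (2.06, SE 0.37). The order of the groups was the same as for RAB4B-EGLN2. AL671762.1 (chromosome 6, 31828834 to 31839719, plus strand), which overlaps the HSP70 gene HSPA1B and the small nucleolar RNA host SNHG32, had 23.32 and 15.22 FPKM in BCL2L11 cells, 0.92 and 0.90 in TRIM9 cells, and 2.82 and 5.62 in GFP cells (1.98, SE 0.39). Here the BCL2L11 libraries were above all others. HSPA1B itself had 233.6 and 130.6 FPKM in BCL2L11 cells, 106.9 and 76.87 in TRIM9 cells, and 198.4 and 207.3 in GFP cells, with BCL2L11 and GFP overlapping. SNHG32 had 21.78 and 10.90 FPKM in BCL2L11 cells, 13.71 and 7.64 in TRIM9 cells, and 8.73 and 10.71 in GFP cells (0.63, SE 0.43), and the small nucleolar RNA gene SNORD48, which also overlaps, stood at 0.46 (SE 0.29). For both of these the BCL2L11 libraries lay above the GFP libraries.

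ANKRD1, a target gene of YAP signalling that encodes an ankyrin repeat protein of muscle and stressed cells, was the protein-coding gene of moderate level with the lowest p on this side. It had 48.96 and 46.09 FPKM in BCL2L11 cells, 43.59 and 52.94 in TRIM9 cells, and 20.46 and 24.45 in GFP cells. The log2 fold change against GFP was 1.05 (SE 0.29, 95% interval 0.38 to 1.73, adjusted p = 1.0 in limma), with 1.22 and 0.89 within the sets. Both trigger groups lay above GFP, and BCL2L11 against TRIM9 cells stood at -0.02 (SE 0.29). Near it in rank, NDUFA3, a subunit of respiratory complex I, had 23.72 and 12.27 FPKM in BCL2L11 cells, 14.88 and 9.39 in TRIM9 cells, and 6.40 and 6.68 in GFP cells (1.26, SE 0.40). A second NDUFA3 locus is listed off the assembled chromosomes and had 21.07 and 8.99 FPKM in BCL2L11 cells, 12.71 and 7.39 in TRIM9 cells, and 4.13 and 5.48 in GFP cells, so its reads may be split between the copies. The BCL2L11 replicates differed by more than the GFP replicates at both loci.

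ANKRD26P1, a pseudogene, and the U1 small nuclear RNA copies RNU1-28P and RNU1-27P were low in all libraries. Named for a low p against GFP, they separated BCL2L11 from GFP cells. ANKRD26P1 had 1.04 and 1.32 FPKM in BCL2L11 cells, 0.18 and 0.10 in TRIM9 cells, and 0.14 and 0.07 in GFP cells (0.98, SE 0.24). RNU1-28P had 1.84 and 1.28 FPKM in BCL2L11 cells, 0.37 and 0.30 in TRIM9 cells, and 0.50 and 0.31 in GFP cells (0.86, SE 0.26). Both BCL2L11 libraries were above the other 4 for each. Near-identical copies exist for these genes, so their levels are uncertain. GDF1, AC011462.4 and AC073655.2 completed the higher group with log2 fold changes of 1.27, 0.91 and 1.02.

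At a mean of at least 10 FPKM the genes next in p included RPS10-NUDT3, AC009244.1, SDR39U1, NOP10, NDUFA1, MT-TQ, ENY2 and MT-TL2. NOP10 encodes a protein of H/ACA ribonucleoproteins and NDUFA1 a subunit of respiratory complex I. NDUFA1 had 318.3 and 124.9 FPKM in BCL2L11 cells, 203.8 and 132.4 in TRIM9 cells, and 88.23 and 102.4 in GFP cells (1.06, SE 0.49). For NOP10 the values were 132.8 and 77.12 in BCL2L11 cells, 123.2 and 112.7 in TRIM9 cells, and 38.05 and 72.66 in GFP cells (0.93, SE 0.43). In both BCL2L11 replicate 1 was the higher of the pair, and the set 1 differences of 1.84 for NDUFA1 and 1.78 for NOP10 exceeded those of set 2, at 0.28 and 0.08. The mitochondrial tRNA gene MT-TL2 was the extreme, with 377.7 and 51.48 FPKM in BCL2L11 cells, 118.4 and 30.23 in TRIM9 cells, and 26.87 and 52.05 in GFP cells, and differences of 3.76 in set 1 and -0.02 in set 2. RPS10-NUDT3 went the other way, with 0.41 in set 1 and 2.97 in set 2.

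**Figure D3:**
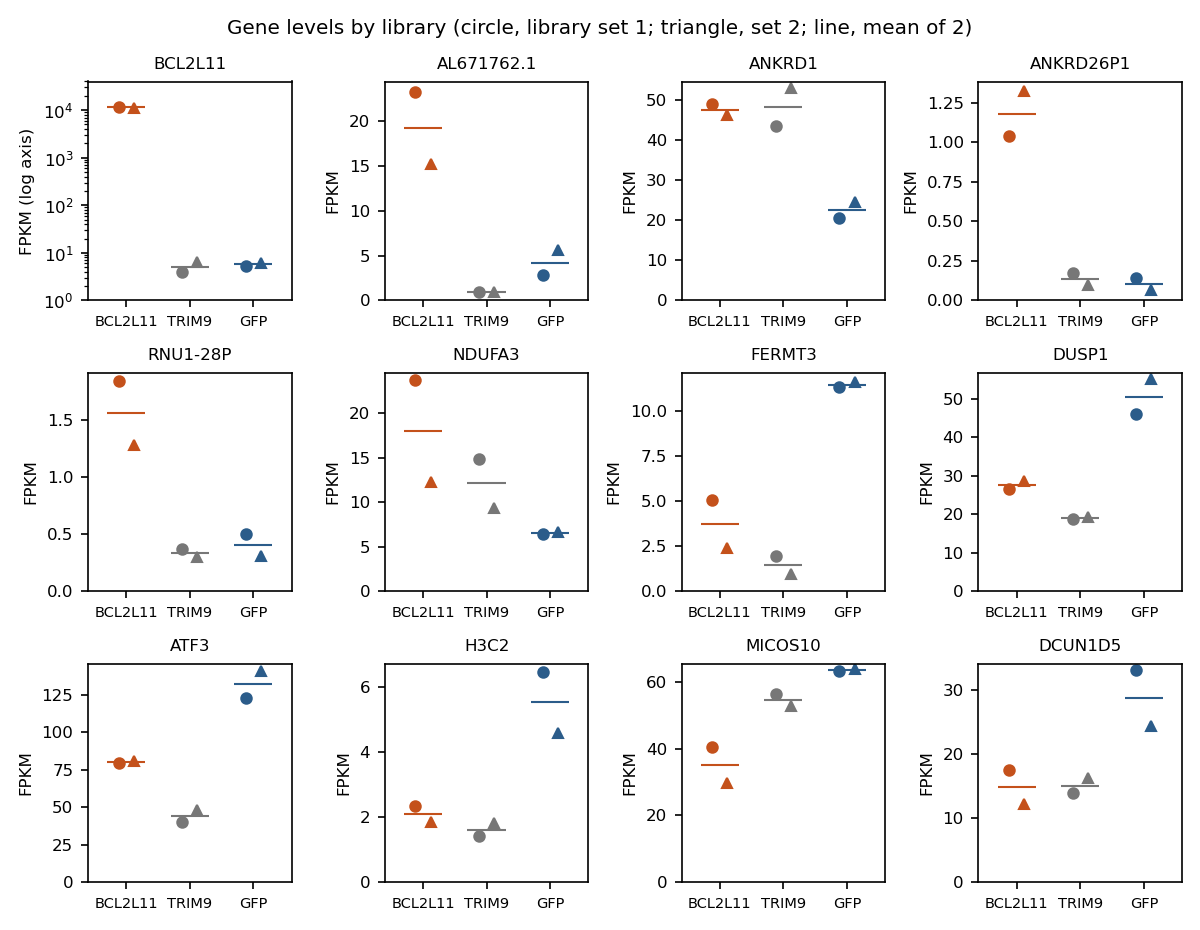
FPKM of 12 named genes in each poly-A library (vertical axes, linear from 0 except for BCL2L11, which has a log axis), by group along the horizontal axis, with circles for library set 1, triangles for set 2 and a line at the mean of the 2 libraries. BCL2L11 cells reach 11484 and 11275 FPKM for BCL2L11, ANKRD1 is at 48.96 and 46.09 in BCL2L11 cells beside 20.46 and 24.45 in GFP cells, and DUSP1 and ATF3 have both trigger groups below the GFP group.

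On the lower side the genes of lowest p, none passing, held an antisense RNA, a histone gene and genes of low level. GEMIN7-AS1, antisense to the splicing complex gene GEMIN7, had 0.11 and 0.76 FPKM in BCL2L11 cells, 0.58 and 1.19 in TRIM9 cells, and 6.55 and 2.34 in GFP cells (-1.84, SE 0.46). The labels do not say whether the counting used strand, so its reads cannot be told apart from those of GEMIN7. FERMT3, which encodes the integrin activator kindlin-3 of blood cells (chromosome 11, 64206678 to 64223886, plus strand), had 5.09 and 2.39 FPKM in BCL2L11 cells, 1.96 and 0.96 in TRIM9 cells, and 11.34 and 11.62 in GFP cells (-1.46, SE 0.39). Both trigger groups lay below the GFP libraries. The blood marker list summed over its 4 tested members, FERMT3 included, to 16.4 and 8.93 FPKM in BCL2L11 cells, 16.6 and 8.57 in TRIM9 cells, and 26.4 and 17.7 in GFP cells. The other tested blood markers, CD14, HBA1 and HBA2, stood at -0.34, -0.07 and -0.05, and the part of blood cells in the result was not tested. The co-chaperone gene STIP1, named after its values were seen, ends 2135 bases upstream of FERMT3 on the same strand and had 346.4 and 235.8 FPKM in BCL2L11 cells, 287.1 and 230.3 in TRIM9 cells, and 245.6 and 251.3 in GFP cells.

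PDK1, which encodes a kinase that turns off pyruvate dehydrogenase and is induced by hypoxia, had 0.97 and 1.84 FPKM in BCL2L11 cells, 3.29 and 3.62 in TRIM9 cells, and 6.68 and 3.22 in GFP cells (-1.27, SE 0.39, -1.96 and -0.57 within the sets). The BCL2L11 libraries were the lowest of the 6. AC112715.1, MIR3662, AC010547.4, U4, OVOL3, AC064836.3, AD000671.1 and AL022238.3 made up the rest of the group, with log2 fold changes from -1.99 to -0.79 and no library above 7.77 FPKM. The gene listed as U4 is an annotated copy on chromosome 1 that overlaps ENSA on the same strand, and MIR3662 lies within HBS1L.

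At a mean of at least 10 FPKM, DUSP1 was first on the lower side. This gene of a phosphatase that inactivates MAP kinases had 26.53 and 28.78 FPKM in BCL2L11 cells, 18.90 and 19.37 in TRIM9 cells, and 45.98 and 55.02 in GFP cells (-0.84, SE 0.28, 95% interval -1.50 to -0.18). MICOS10, a subunit of the complex that shapes mitochondrial cristae, had 40.33 and 29.75 FPKM in BCL2L11 cells, 56.28 and 52.74 in TRIM9 cells, and 63.21 and 63.71 in GFP cells (-0.85, SE 0.30). DCUN1D5, a cofactor of cullin neddylation, had 17.46 and 12.22 FPKM in BCL2L11 cells, 13.92 and 16.19 in TRIM9 cells, and 33.01 and 24.38 in GFP cells (-0.91, SE 0.32). The BCL2L11 and GFP libraries did not overlap for these genes, which were chosen for a low p in this same comparison. Of all genes 12.3% lay below both GFP libraries. MICOS10 was lowest in BCL2L11 cells and DUSP1 in TRIM9 cells, while for DCUN1D5 the BCL2L11 and TRIM9 libraries overlapped. MICOS10 overlaps NBL1 and AL031727.1 on the same strand, at 0.70 (SE 0.48) and 0.23 (SE 0.75). It also overlaps CAPZB on the other strand, at -0.49 (SE 0.33). How reads were divided among these overlapping genes was not tested. CCDC57 had the largest estimate of the group, -2.19, with an SE of 0.88, since its replicates differed widely, at 10.90 and 88.04 FPKM in BCL2L11 cells, 62.85 and 66.31 in TRIM9 cells, and 98.98 and 221.3 in GFP cells. ZFP62, H4C14, ATF3, ZC3H14, BX679664.3, RPL22L1, HSDL1 and ATP5MC3 followed, with log2 fold changes from -1.19 to -0.69.

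**Figure D4:**
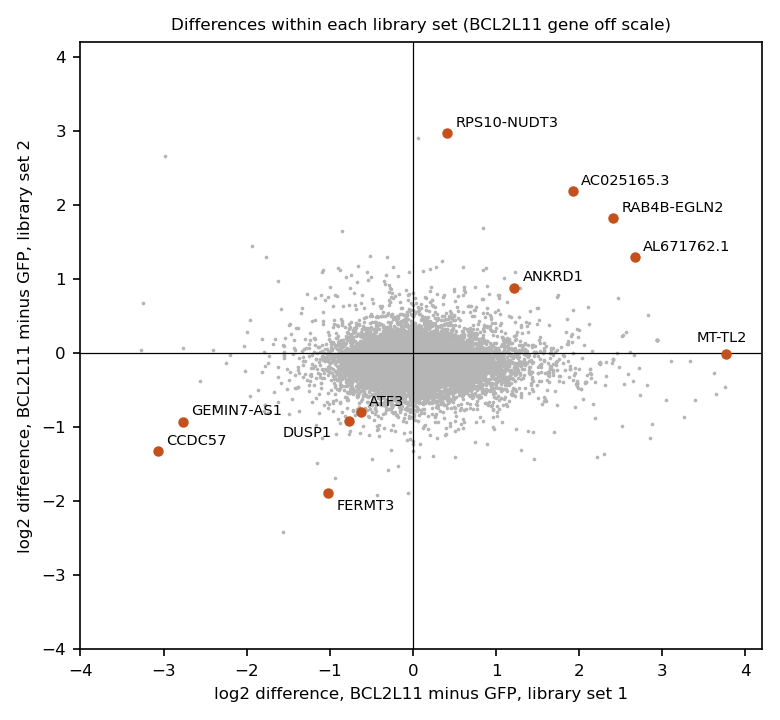
Log2 difference of BCL2L11 minus GFP cells within library set 2 (vertical axis) against that within library set 1 (horizontal axis), 1 point per gene, BCL2L11 off scale. Genes such as ANKRD1 (1.22 and 0.89) and DUSP1 (-0.77 and -0.91) lie in the corner quadrants, whereas MT-TL2 (3.76 and -0.02) differs in set 1 alone.

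Published targets of miR-221 and miR-222 did not pass in either direction. Of 30 listed genes 22 were tested, and limma called 0 with 0 at an unadjusted p under 0.05. Of the 22, 2 lay above and 1 below both GFP libraries, beside 4.44% above and 12.3% below of all genes. After TMM rescaling 5 lay above and 0 below, beside 8.38% and 7.11% of all genes. Their median log2 fold change was -0.07, beside -0.08 for all genes, and 0.01 beside 0.00 after TMM rescaling. CDKN1B, which encodes the cell cycle inhibitor p27 and is the best known target, had 24.49 and 35.96 FPKM in BCL2L11 cells, 16.49 and 20.46 in TRIM9 cells, and 20.84 and 27.07 in GFP cells (0.31, SE 0.33, 95% interval -0.46 to 1.08, within sets 0.22 and 0.40). The BCL2L11 library exceeded the GFP library in each set, but before rescaling the groups overlapped. After TMM rescaling (log2 fold change 0.41) both BCL2L11 libraries lay above both GFP libraries for CDKN1B, as for 8.38% of all genes. BBC3, which encodes the BH3-only protein PUMA, had 31.85 and 14.61 FPKM in BCL2L11 cells, 22.12 and 8.57 in TRIM9 cells, and 8.71 and 19.28 in GFP cells, and its sets disagreed at 1.76 and -0.38. PPP2R2A, a regulatory subunit of phosphatase 2A, had 25.88 and 37.54 FPKM in BCL2L11 cells, 24.65 and 30.26 in TRIM9 cells, and 42.56 and 39.63 in GFP cells (-0.39, SE 0.31), the 1 target below both GFP libraries. For 7 of the 22 targets the interval lay within a 2-fold change.

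The BCL2 family and apoptosis list (28 genes, 24 tested) contained the 1 call, BCL2L11. Without it the median was 0.04, beside -0.08 for all genes. Over all tested members of the list the medians within sets 1 and 2 were -0.02 and -0.15. After TMM rescaling the median over all tested members was 0.13, beside 0.00 for all genes. The 4 anti-apoptotic genes tested, which include BCL2 and MCL1, lay between -0.07 and 0.09. The pore formers BAX and BAK1 stood at 0.20 and 0.43, and the genes of the caspase pathway between -0.25 and 0.24. Of its 24 tested genes 2, BCL2L11 among them, lay above and 2 below both GFP libraries (all genes 4.44% and 12.3%). After TMM rescaling 3, again with BCL2L11, lay above and 2 below (all genes 8.38% and 7.11%).

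The factors that carry out miRNA decay and repression were all expressed (26 of 26 tested). limma called 0, with 0 at an unadjusted p under 0.05, the median was -0.13, and 0 genes lay above and 4 below both GFP libraries. After TMM rescaling the median was -0.04, and 3 lay above and 1 below. The shares of all genes were 4.44% above and 12.3% below, and 8.38% and 7.11% after rescaling. ZSWIM8 had 10.82 and 9.0 FPKM in BCL2L11 cells, 9.98 and 8.56 in TRIM9 cells, and 7.29 and 12.31 in GFP cells (0.05, SE 0.34, 0.51 and -0.41 within the sets). The 4 Argonaute genes stood between -0.41 and -0.13. TENT2, a nucleotidyltransferase that tails miRNAs, had 7.26 and 15.80 FPKM in BCL2L11 cells, 7.40 and 14.44 in TRIM9 cells, and 14.42 and 19.01 in GFP cells (-0.58, SE 0.46), with overlapping groups.

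**Figure D5:**
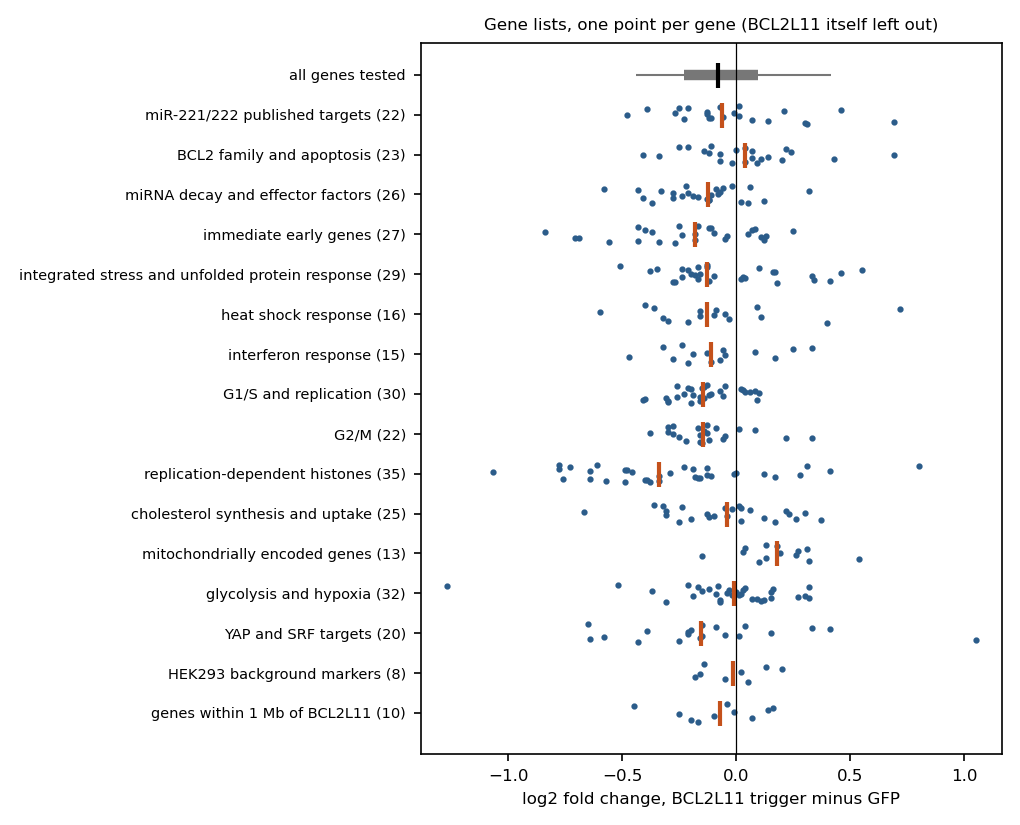
Log2 fold change of BCL2L11 minus GFP cells (horizontal axis) for the tested members of 16 gene lists with at least 8 tested genes each, 1 point per gene with the number of points in parentheses and an orange mark at the median; the top row gives all 15183 genes, with the thin line from the 5th to the 95th percentile and the thick line between the quartiles. List medians run from -0.34 for histones to 0.18 for mitochondrially encoded genes, beside -0.08 for all genes.

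Of the immediate early genes, which growth factors and stress switch on within minutes, 27 were tested and none passed. Of the 27 tested genes 1 lay above and 7 below both GFP libraries (all genes 4.44% and 12.3%), also 1 and 7 after TMM rescaling (8.38% and 7.11%), with a median of -0.18; limma called 0, with 2 at an unadjusted p under 0.05. Those were DUSP1 and ATF3. The stress transcription factor gene ATF3 had 79.22 and 80.79 FPKM in BCL2L11 cells, 40.18 and 48.56 in TRIM9 cells, and 123.1 and 140.8 in GFP cells (-0.71, SE 0.29). FOSL1, an AP-1 subunit gene, had 2.15 and 1.46 FPKM in BCL2L11 cells, 1.54 and 1.33 in TRIM9 cells, and 3.25 and 2.97 in GFP cells (-0.56, SE 0.29). EGR1 had 1.65 and 3.04 FPKM in BCL2L11 cells, 4.31 and 5.11 in TRIM9 cells, and 2.53 and 6.88 in GFP cells. For ATF3 the groups were in the order TRIM9, BCL2L11, GFP from low to high. For FOSL1 both trigger groups lay below GFP and overlapped each other, and for EGR1 BCL2L11 and GFP overlapped. The list median was 0.05 in set 1 and -0.42 in set 2.

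Of the heat shock genes 16 were tested. Of these 1 lay above and 5 below both GFP libraries (all genes 4.44% and 12.3%), and 1 and 2 after TMM rescaling (8.38% and 7.11%). The median was -0.13 and limma called 0, with 0 at an unadjusted p under 0.05. DNAJB1, the main HSP40 co-chaperone, had 333.2 and 271.8 FPKM in BCL2L11 cells, 138.9 and 139.4 in TRIM9 cells, and 458.5 and 456.2 in GFP cells (-0.60, SE 0.32). BAG3, a co-chaperone of HSP70, had 57.57 and 54.45 FPKM in BCL2L11 cells, 32.93 and 27.76 in TRIM9 cells, and 64.82 and 80.82 in GFP cells (-0.36, SE 0.29). HSPE1, the mitochondrial co-chaperonin, lay the other way at 509.3 and 279.2 FPKM in BCL2L11 cells, 326.9 and 239.8 in TRIM9 cells, and 215.0 and 243.2 in GFP cells (0.72, SE 0.41).

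Replication-dependent histone genes, which peak in S phase and whose normal transcripts lack a poly-A tail, had the lowest median of the lists, -0.34 (-0.29 and -0.42 within the sets, -0.25 after TMM rescaling). Of 60 genes 35 were tested; 1 lay above and 14 below both GFP libraries (all genes 4.44% and 12.3%), and 3 and 8 after rescaling (8.38% and 7.11%). limma called 0, with 4 at an unadjusted p under 0.05, all on the lower side. H3C2 had 2.34 and 1.86 FPKM in BCL2L11 cells, 1.43 and 1.82 in TRIM9 cells, and 6.48 and 4.61 in GFP cells (-1.07, SE 0.31). H2AC14 had 0.27 and 0.37 FPKM in BCL2L11 cells, 0.19 and 0.55 in TRIM9 cells, and 1.04 and 1.43 in GFP cells (-0.76, SE 0.27). H4C8 had 2.05 and 1.98 FPKM in BCL2L11 cells, 0.64 and 0.68 in TRIM9 cells, and 3.87 and 4.15 in GFP cells (-0.73, SE 0.27), and H4C14 had 14.97 and 12.76, 7.12 and 7.80, and 29.25 and 20.29 FPKM in BCL2L11, TRIM9 and GFP cells (-0.78, SE 0.31). All 4 were below GFP with either trigger. Histone genes are near-identical copies, so the division of reads among them is uncertain.

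Cell cycle genes of other kinds did not pass. Of the 30 G1/S and replication genes 0 lay above and 9 below both GFP libraries (all genes 4.44% and 12.3%), with a median of -0.15. After TMM rescaling 0 lay above and 4 below (8.38% and 7.11%), with a median of -0.05. The helicase subunit gene MCM6 had 44.02 and 48.38 FPKM in BCL2L11 cells, 42.48 and 50.26 in TRIM9 cells, and 63.13 and 59.97 in GFP cells (-0.41, SE 0.28), and the licensing factor gene CDC6 had 23.76 and 27.45, 19.88 and 24.34, and 36.23 and 31.79 FPKM in BCL2L11, TRIM9 and GFP cells (-0.40, SE 0.29). Both trigger groups were below GFP for MCM6 and CDC6. Of the 22 G2/M genes 0 lay above and 1 below (2 and 1 after rescaling), with a median of -0.14 (-0.30 and -0.01 within the sets). limma called 0 in both lists, with 0 at an unadjusted p under 0.05.

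Other stress responses were likewise without a call. Of 29 genes of the integrated stress and unfolded protein responses 2 lay above and 3 below both GFP libraries (all genes 4.44% and 12.3%), with a median of -0.13. After TMM rescaling 4 lay above and 1 below (all genes 8.38% and 7.11%), with a median of -0.04. CHAC1, an ATF4 target that degrades glutathione, had 8.57 and 6.64 FPKM in BCL2L11 cells, 9.46 and 6.69 in TRIM9 cells, and 3.69 and 6.30 in GFP cells (0.55, SE 0.36). ERN1, which encodes the sensor IRE1, had 1.39 and 2.86 FPKM in BCL2L11 cells, 2.23 and 2.92 in TRIM9 cells, and 3.32 and 3.34 in GFP cells (-0.51, SE 0.34). Of 40 interferon response genes only 15 passed the filter, with 0 above and 6 below (0 and 4 after TMM rescaling) and a median of -0.11. ISG20, an exonuclease gene, had 1.91 and 1.73 FPKM in BCL2L11 cells, 0.72 and 0.44 in TRIM9 cells, and 2.82 and 3.02 in GFP cells (-0.47, SE 0.28). limma called 0 in both lists, with 0 at an unadjusted p under 0.05.

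Metabolic and cytoskeletal lists gave 0 calls as well. Both BCL2L11 libraries lay above both GFP libraries for 4.44% of all genes and below both for 12.3%. After TMM rescaling these shares were 8.38% and 7.11%. The 13 mitochondrially encoded protein genes had the highest median, 0.18 (0.29 after TMM rescaling), with 0.43 in set 1 and -0.06 in set 2. They made up, with the other mitochondrial transcripts, 7.24% and 9.22% of FPKM in BCL2L11 cells, 7.58% and 10.2% in TRIM9 cells, and 5.82% and 9.44% in GFP cells, so the low value was that of GFP replicate 1. All 13 overlapped between BCL2L11 and GFP libraries before rescaling, whereas after TMM rescaling 5 lay above and 0 below both GFP libraries (all genes 8.38% and 7.11%), and 0 had an interval within a 2-fold change. Of 25 genes of cholesterol synthesis and uptake 0 lay above and 3 below (0 and 0 after rescaling), with a median of -0.04 that turned to 0.05 after rescaling. HSD17B7, a sterol reductase gene, had 12.39 and 12.15 FPKM in BCL2L11 cells, 18.74 and 13.04 in TRIM9 cells, and 27.04 and 14.84 in GFP cells (-0.67, SE 0.37). Of 32 genes of glycolysis and hypoxia 2 lay above and 3 below (3 and 2 after rescaling), with a median of -0.01 that turned to 0.07, and PDK1 was the 1 gene at an unadjusted p under 0.05. Of 20 YAP and SRF targets 2, ANKRD1 and the SRF target TAGLN, lay above and 5 below (1 and 3 after rescaling), with a median of -0.15, and ANKRD1 was the 1 gene at an unadjusted p under 0.05. The YAP targets CCN1 and AMOTL2 lay below both GFP libraries: CCN1 had 10.24 and 11.18 FPKM in BCL2L11 cells, 7.40 and 7.94 in TRIM9 cells, and 13 and 16.87 in GFP cells (-0.43, SE 0.29), and AMOTL2 had 3.21 and 6.11, 2.98 and 4.25, and 6.76 and 8.36 FPKM in BCL2L11, TRIM9 and GFP cells (-0.64, SE 0.37).

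Of the neighbours of BCL2L11 in the genome none passed. Of 56 genes listed within 1 megabase 10 were tested, with 0 calls. Of these 10, 0 lay above and 1 below both GFP libraries (all genes 4.44% and 12.3%). The counts were the same after TMM rescaling (all genes 8.38% and 7.11%). Their log2 fold changes ran from -0.45 to 0.16, with a median of -0.07. MIR4435-2HG, which overlaps the locus on the opposite strand, had 4.76 and 3.02 FPKM in BCL2L11 cells, 4.42 and 4.41 in TRIM9 cells, and 3.64 and 4.07 in GFP cells.

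Set directly against the TRIM9 cells, which carried another trigger, BCL2L11 cells differed in the 2 genes the triggers came from: limma called 2 of 15183 genes (0.0132%), with 98 at an unadjusted p under 0.05. BCL2L11 stood at 10.88 (SE 0.32) and TRIM9, a ubiquitin ligase gene of neurons, at -10.73 (SE 0.36). TRIM9 had 1.21 and 2.30 FPKM in BCL2L11 cells, 5297 and 3948 in TRIM9 cells, and 1.74 and 2.92 in GFP cells. The HSP70 gene HSPA6, which is induced by strong heat stress, was next with the library sets as a term, where it passed beside these genes. It had 266.6 and 163.3 FPKM in BCL2L11 cells, 29.62 and 23.53 in TRIM9 cells, and 274.5 and 241.2 in GFP cells (BCL2L11 minus TRIM9 2.94, SE 0.36, adjusted p = 0.214 in limma without that term). BCL2L11 and GFP cells overlapped for HSPA6 (-0.30, SE 0.36), and the TRIM9 libraries were the low ones. For AL671762.1 the difference from TRIM9 cells was 3.38 (SE 0.39, adjusted p = 0.214 in limma).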

How the data were processed

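Poly-A RNA of HEK293T cells was measured in 6 libraries, 2 for each of 3 groups, and small RNA in 6 more, of which only the miRNA context is used. The submitters' processing notes name StringTie 2.1.3, STAR, DESeq2 1.20.0 and cutadapt 3.4, and the hg38 genome. For each transcript model the deposited StringTie tables hold FPKM and a coverage signal, the average depth over its bases, per the file headers. The authors' deposited comparison table holds p-values, q-values and a fold change, both as a ratio and in log2, and the deposited miRNA table gives read counts, not normalised. The tool and filter behind the comparison table and the direction of its fold change are not given in the sources used here; BCL2L11 is positive in it. Whether counting used strand is likewise not given.

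FPKM was summed over the models of a gene. The log2 value of FPKM plus 1 entered a fit in limma 3.58.1 (R 4.3.3, trend, group only, all 6 libraries, two-sided, Benjamini-Hochberg adjustment over all genes tested, threshold 0.05) for genes with at least 1 FPKM in at least 2 libraries. FPKM does not allow a count test. The added 1 understates changes of low genes. With 2 libraries in each group the smallest p of an exact test is 0.333, so the fit that shares the spread over genes was used. Of the 15183 genes tested, 994 lay off the assembled chromosomes, and 1460 loci shared a symbol with another locus. The fit was tested on simulated data. Pairs of libraries with identical values numbered 0 of 15.

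The groups and lists were chosen with earlier results of these data known. Named are BCL2L11 and TRIM9, up to 12 genes per direction of lowest p, the same among genes with a mean of at least 10 FPKM, genes that pass with the library sets as a term, members of lowest p (up to 4) and defining members of each list, and the 10 genes of highest mean. List members outside this rule, IRS4, PTPRC, CD3E and the genes that overlap or neighbour a named gene were named after their values were seen. Alternatives were FPKM rescaled by TMM factors (edgeR 4.0.16), a pseudocount of 0.1, a minimum of 5 FPKM, no filter, a filter over the compared libraries, no trend, the library sets as a term, the compared groups alone and leaving out each library. Fitting the assembled chromosomes only was chosen after seeing the data. Some named genes and a list are not reported here. Target lists by seed sites in 3′ untranslated regions were not analysed here.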

Additional observations from a re-analysis of the deposited data

How the results depend on the processing

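The BCL2L11 call against GFP was the 1 call under each alternative run, with a log2 fold change between 10.64 and 10.92 and an adjusted p in limma between 2.84e-07 and 0.00911 over 15 alternatives. The 2 calls against TRIM9 were also made under each alternative, and the replicate block (a term for the library sets) added HSPA6. The labels give no shared replicate numbers, so the sets share only the order of their title numbers; deviations from the group means correlated at 0.58 between GFP and BCL2L11, 0.83 between BCL2L11 and TRIM9, and 0.49 between GFP and TRIM9, and 4991 genes passed for the sets. Without the block 83 genes had an unadjusted p under 0.05 against GFP, and with it 543, of which 1 passed. Without BCL2L11 replicate 2 there were 292 such genes, and without GFP replicate 2 there were 231, again with 1 call each. No list gained a member with the block or with TMM rescaling. Of 1085 alternative values of 74 named genes 1079 kept their direction and side of the threshold. The rest were sign changes of values near 0 in 3 genes. Leaving out 1 library, TRIM9 ranged from -0.57 to 0.01 against GFP, ZSWIM8 from -0.29 to 0.39 and MIR222HG from -0.08 to 0.05, and MIR222HG stood at 0.08 with TMM rescaling. In the fits that leave a group with 1 library, that library is assumed to vary like the others. Depth in reads is unknown, and the number of libraries limits the precision.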

Other observations

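The 69 tested genes that RefSeq annotates as miRNA had a median log2 fold change of 0.23 for BCL2L11 against GFP, with the 5th and 95th percentiles at -0.73 and 1.41, beside -0.08 with -0.42 and 0.37 for 12422 protein-coding genes. Of the miRNA genes 13 lay above and 6 below both GFP libraries, beside 4.44% and 12.3% of all genes. The shares of all genes turned to 8.38% and 7.11% after TMM rescaling, and the miRNA genes were not counted after it. For 6 miRNA genes the 95% interval lay within a 2-fold change. The median half-width of the interval was 1.2 for miRNA genes and 0.85 for protein-coding genes. The 57 small nucleolar RNA genes had a median of -0.17, with percentiles of -0.80 and 0.72, and the 716 long noncoding RNA genes -0.06. limma called 0 in each of these classes, with 5, 0 and 4 at an unadjusted p under 0.05. These short RNAs are not themselves polyadenylated, and reads of their host transcripts are counted in their models to an extent that was not tested.

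By chromosome the median log2 fold change ran from -0.18 for the 251 tested genes of chromosome 13 to 0.05 for the 960 of chromosome 19 among the nuclear chromosomes, and was 0.27 for 37 mitochondrial genes, whose 5th and 95th percentiles were -0.23 and 1.39. None of these differences between chromosomes was tested.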
